A study of Mus musculus with 6 samples.

Results

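Ceramide is made in the endoplasmic reticulum and is the branch point of sphingolipid metabolism. The transcripts described here are those of 10 genes of ceramide synthesis and turnover, taken by symbol from the expression table: Sptlc1, Sptlc2, Sptlc3, Cers2, Cers4, Cers5, Cers6, Degs1, Ugcg and Acer2. All 10 were found, each in 1 row, among 21900 distinct symbols. RNA came from inguinal white adipose tissue, the subcutaneous fat of the groin, of C57BL/6 mice aged 2 months, fed chow and kept at 22 °C until 7 days at 4 °C. The 3 knockout samples are labelled Foxp4AdipoQdelta/delta, the notation for deletion of the forkhead transcription factor gene Foxp4 by way of the adiponectin promoter, a driver for mature adipocytes. The 3 control samples carry the floxed gene (Foxp4fl/fl). The labels do not name the Cre line and give none in the controls, so effects of a driver and of the deletion cannot be told apart. They give no sex, batch or pooling of animals, and if the replicates are technical a p-value covers technical spread alone.

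Serine palmitoyltransferase, a complex of Sptlc1 with Sptlc2 or Sptlc3, joins serine to a fatty acyl-CoA and commits carbon to the pathway. The product is reduced, a ceramide synthase adds a second acyl chain, and the desaturase Degs1 turns dihydroceramide into ceramide. Ceramide synthases differ in the chain they add: Cers2 prefers very long chains, Cers4 long chains, and Cers5 and Cers6 palmitoyl chains. Ceramide then goes to glucosylceramide through Ugcg, to sphingomyelin, or to sphingosine through ceramidases such as Acer2. In adipose tissue of mice, ceramides with palmitoyl chains are known for their link to obesity and insulin resistance, and loss of ceramide synthesis in adipocytes for a more thermogenic fat.

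In these libraries the 9 tested transcripts of the ceramide core stood at 0.740 to 0.995 times the control mean in knockouts. Of all genes tested, 66.0% also had a log2 fold change below 0. After median-of-ratios scaling, Sptlc1, Cers2 and Degs1 lay above 0. Ugcg and Sptlc2 stand at an exit and at the entrance of the pathway. They stood at 0.745 and 0.741 times the control mean in knockouts, and Cers6 at 0.775 times from a low level. Cers4 stood at 0.740 times, but its groups overlapped and the ratio was 0.974 without control replicate 3. The most abundant members, Cers2, Degs1 and Sptlc1, had nearly equal means in both genotypes. None of the 9 tested members passed the test over all genes, and the ceramide synthase isoforms kept the same order of level in every library. That test called 1 of 10787 genes and not Foxp4 itself, so not passing it does not show equal levels.

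Values are FPKM, fragments scaled to exon length and library depth, which corrects for gene length, and depth was 13135447 to 15960818 recovered reads per library. The 10787 genes that averaged 1 FPKM or more in knockouts or in controls were tested with limma on log2(FPKM + 1), with p-values adjusted over all of them by the Benjamini-Hochberg method. Of these, 1 (0.00927%), the myoglobin gene Mb, passed an adjusted p of 0.05, so counts below use the unadjusted p with its background. Log2 fold changes below are fitted differences on the log2(FPKM + 1) scale, which understates changes at levels of a few FPKM. Foxp4 stood at 1.92, 1.71 and 1.64 FPKM in knockouts and at 5.76, 4.01 and 4.62 FPKM in controls (adjusted p = 0.070 in limma). A set of 9 adipocyte markers summed to 8939 to 9828 FPKM in knockouts and 11540 to 12701 FPKM in controls. Only Cfd and Adipoq of the 9 separated the groups, and most of the gap lay in Cfd, which averaged 4000 FPKM in knockouts and 6162 FPKM in controls. Fabp4 averaged 2483 FPKM in knockouts and 2539 FPKM in controls. In whole tissue, fewer cells of a type and less RNA per cell cannot be told apart.

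**Figure D1:**
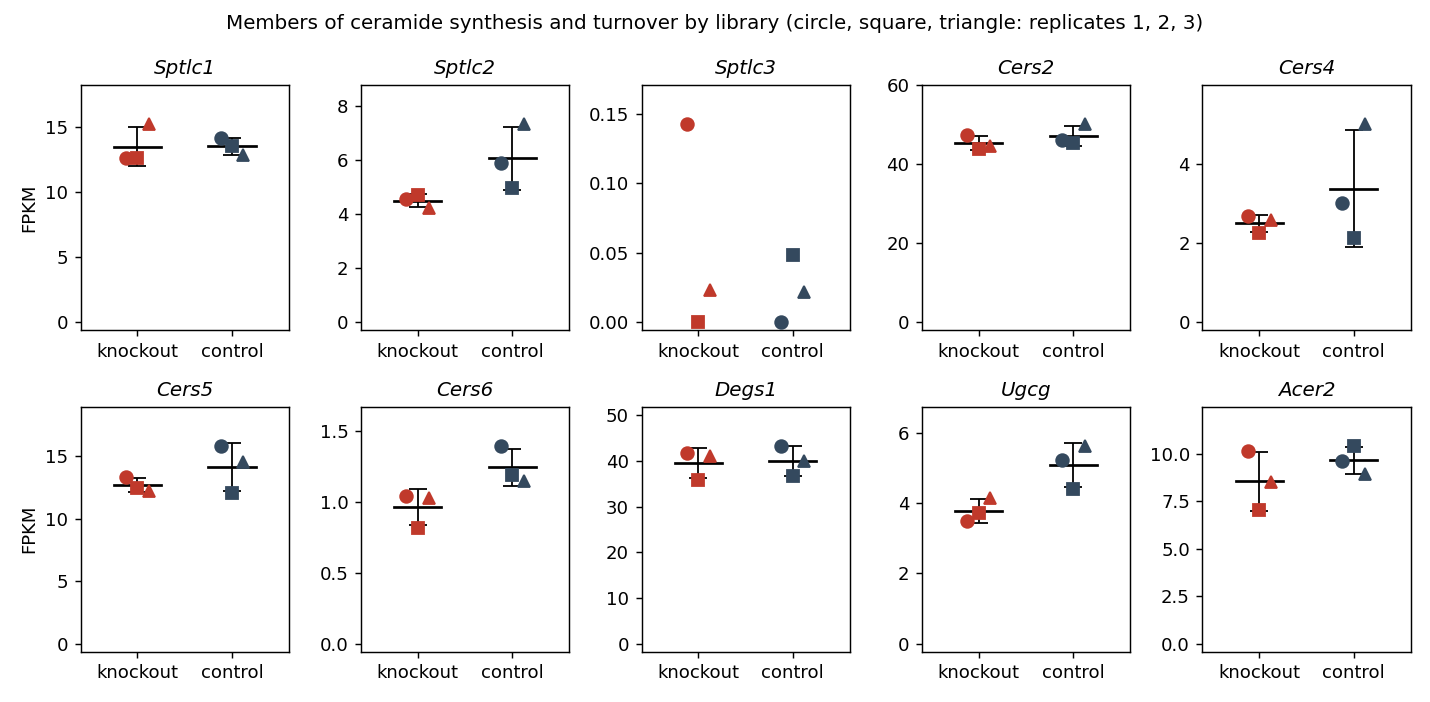
FPKM (vertical axis, from 0) of each of the 10 genes in the 3 knockout and 3 control libraries; bars are the mean and SD, left out for Sptlc3, which is listed at 0 in some libraries. The knockouts lie below all controls for Sptlc2, Cers6 and Ugcg, and the groups overlap for the other genes.

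Sptlc1 (chromosome 13, 53332748 to 53377397, minus strand, mm10) encodes the subunit common to all forms of serine palmitoyltransferase. It stood at 12.6, 12.6 and 15.2 FPKM in knockouts and at 14.2, 13.5 and 12.9 FPKM in controls. The groups overlapped, and the highest and the lowest library were both knockouts. The log2 fold change was -0.01 (95% interval -0.23 to 0.21, adjusted p = 0.955 in limma).

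Sptlc2 (chromosome 12, 87305058 to 87388355, minus strand) encodes the catalytic partner of Sptlc1. It stood at 4.53, 4.69 and 4.23 FPKM in knockouts and at 5.87, 4.97 and 7.30 FPKM in controls, from 505 to 955 reads per library. Every knockout was below every control, and control 3 was the highest. The knockout mean of 4.48 ± 0.23 FPKM was 0.741 times the control mean of 6.05 ± 1.18 FPKM (SD, n = 3 each). Its log2 fold change came to -0.35 (SE 0.13; -0.65 to -0.05 at 95%), an unadjusted p of 0.027 and an adjusted p of 0.161 in limma. Without control replicate 3 it was -0.22, with an unadjusted p of 0.061 in limma. With all libraries and a pseudocount of 0.1 it was -0.41 (adjusted p = 0.157 in limma). After median-of-ratios scaling it was -0.28 (adjusted p = 0.191 in limma).

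Sptlc3 (chromosome 2, 139493913 to 139637674, plus strand) encodes an alternative to Sptlc2 that takes shorter acyl chains. It was at or near the limit of detection, with 6, 0 and 1 reads in knockouts and 0, 2 and 1 reads in controls. A count of 3 reads, the limit that a count of 0 allows, is worth 0.0654 to 0.0794 FPKM here, by counting error alone, and knockout 1 lay above it at 0.143 FPKM. Sptlc3 was the only member that did not pass the filter on low values. With Sptlc3 so low, nearly all catalytic subunit transcript in this tissue was Sptlc2.

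The log2 ratio of Sptlc2 to Sptlc1 within a library, which does not depend on how libraries are scaled, was -1.48, -1.43 and -1.85 in knockouts and -1.27, -1.45 and -0.82 in controls. Control 2 lay among the knockouts, and the difference of -0.40 between group means had an exact two-sided permutation p of 0.2 (0.467 adjusted over 7 ratios). It was -0.22 without control replicate 3. Groups of 3 cannot give an exact p below 0.1.

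The promoters of the alternative subunits are shown because one gene is transcribed in this tissue and the other hardly at all, with that of Cers6 beside them as the least abundant tested member whose groups do not overlap. Each is the 250 bases before the RefSeq transcription start (GRCm38.p6, the assembly of mm10), read 5′ to 3′ on the gene's strand. They lie at chr12:87388356-87388605 (Sptlc2, minus strand), chr2:139493663-139493912 (Sptlc3, plus strand) and chr2:68861191-68861440 (Cers6, plus strand). Capitals mark the GC box GGGCGG, the promoter element known by its letters CCAAT, and forkhead heptamers, each on either strand.
Sptlc2: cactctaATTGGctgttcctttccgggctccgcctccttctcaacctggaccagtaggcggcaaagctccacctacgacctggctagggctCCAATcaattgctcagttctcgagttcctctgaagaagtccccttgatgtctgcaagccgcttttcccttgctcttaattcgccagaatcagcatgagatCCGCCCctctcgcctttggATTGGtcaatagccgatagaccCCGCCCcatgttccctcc
Sptlc3: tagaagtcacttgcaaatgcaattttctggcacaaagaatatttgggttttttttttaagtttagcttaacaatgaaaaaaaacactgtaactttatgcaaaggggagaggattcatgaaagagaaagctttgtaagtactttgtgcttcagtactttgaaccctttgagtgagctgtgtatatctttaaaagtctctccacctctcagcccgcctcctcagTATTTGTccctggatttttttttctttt
Cers6: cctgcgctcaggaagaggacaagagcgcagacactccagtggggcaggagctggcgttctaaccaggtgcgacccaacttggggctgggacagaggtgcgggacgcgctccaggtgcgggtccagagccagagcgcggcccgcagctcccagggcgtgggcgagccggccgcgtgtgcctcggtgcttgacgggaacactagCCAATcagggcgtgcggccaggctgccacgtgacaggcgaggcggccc
The Sptlc2 window holds 55.2% G and C with 2 GC boxes and 3 CCAAT boxes, the Cers6 window 70.4% with 1 CCAAT box, and the Sptlc3 window 35.6% with neither. The median over 32851 mouse promoter windows was 52.4%. The forkhead search covered both strands and 8 heptamers, which begin with T, a purine and TTT and end with a purine and a pyrimidine. A heptamer was found in 1 of 11 windows of the 10 genes, TATTTGT in that of Sptlc3, against 24.9% of all windows. A GC box was in 7 of the 11 windows, against 32.7% of all, and a CCAAT box in 4, against 33.8%. Cers2 accounts for 2 of the 11 windows. Apart from that of Sptlc3, the windows held 54.0 to 80.4% G and C, above the median over all windows. The shares were not matched for G and C, so they are not read as particular to the members. The marked motifs do not overlap one another in the 3 windows shown. These are letter matches in a short window and say nothing of binding.

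Cers2 (chromosome 3, 95314791 to 95323599, plus strand) was the most abundant of the 10. It stood at 47.4, 43.9 and 44.6 FPKM in knockouts and at 46.2, 45.4 and 50.1 FPKM in controls, with 2143 to 2966 reads per library. The groups overlapped, and the log2 fold change was -0.06 (95% interval -0.24 to 0.12, adjusted p = 0.667 in limma). The Cers2 exons share 144 bases with those of the antisense gene 6330562C20Rik, which has no value here, and 75 bases with those of Setdb1. Both lie on the other strand. Setdb1 averaged 3.45 FPKM in knockouts and 3.98 FPKM in controls. The strand setting of the counting is not given in the sources used here.

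Cers5 (chromosome 15, 99734881 to 99772885, minus strand), an enzyme of palmitoyl ceramides, was the second isoform. It stood at 13.33, 12.50 and 12.26 FPKM in knockouts and at 15.81, 12.04 and 14.56 FPKM in controls. The 3 knockouts were close to each other, between the lowest control and the other two. The log2 fold change was -0.14 (95% interval -0.39 to 0.11, adjusted p = 0.454 in limma). It was -0.06 without control replicate 1 and after median-of-ratios scaling, and -0.24 without control replicate 2.

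Cers6 (chromosome 2, 68861441 to 69114282, plus strand), the other enzyme of palmitoyl ceramides, was the lowest tested member. It stood at 1.04, 0.815 and 1.03 FPKM in knockouts and at 1.39, 1.19 and 1.15 FPKM in controls, from 96 to 174 reads per library. The groups did not overlap, and the knockout mean of 0.962 ± 0.128 FPKM was 0.775 times the control mean of 1.24 ± 0.131 FPKM (SD, n = 3 each). On the log2(FPKM + 1) scale, which understates changes at this level, the fitted difference came to -0.19 (SE 0.10; -0.43 to 0.05 at 95%), an unadjusted p of 0.0995 and an adjusted p of 0.291 in limma. With a pseudocount of 0.1 it was -0.34 (adjusted p = 0.299 in limma). After median-of-ratios scaling it was -0.15 (adjusted p = 0.431 in limma).

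Cers4 (chromosome 8, 4493026 to 4531680, plus strand), which adds long chains, had the widest relative spread among controls of the 9 tested members. It stood at 2.674, 2.247 and 2.570 FPKM in knockouts and at 2.998, 2.132 and 4.998 FPKM in controls. The knockout mean of 2.50 ± 0.22 FPKM was 0.740 times the control mean of 3.38 ± 1.47 FPKM (SD, n = 3 each). Control 3 was high, control 2 lay below all knockouts, and the coefficient of variation was 8.91% in knockouts against 43.5% in controls. The log2 fold change was -0.27 (95% interval -0.79 to 0.25, adjusted p = 0.469 in limma), with -0.02 without control replicate 3 and -0.49 without control replicate 2. Control 3 also had the highest summed level of 8 progenitor and fibroblast markers, 1007 FPKM against at most 499 FPKM in controls 1 and 2. Its 8 endothelial markers summed to 152 FPKM against at most 87.0 FPKM in those 2 controls, and the part of these cell types in the Cers4 and Sptlc2 values was not tested. A pseudogene on the opposite strand covers 886 of the 12264 exonic bases of Cers4.

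**Figure D2:**
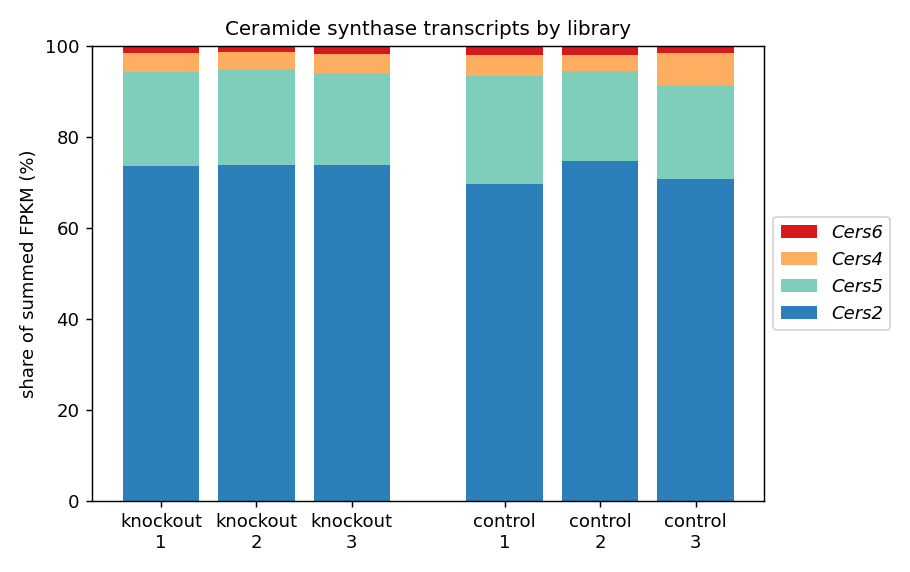
Share of each ceramide synthase (vertical axis, percent) in the summed FPKM of Cers2, Cers5, Cers4 and Cers6, 1 bar per library, knockouts on the left. Cers2 makes up 69.6 to 74.7% in every library, and the knockout bars are alike while control 1 has more Cers5 and control 3 more Cers4.

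The 4 isoforms together came to 61.4 ± 2.61 FPKM in knockouts and 66.0 ± 5.02 FPKM in controls (SD, n = 3 each), with overlapping groups. The levels ran Cers2, Cers5, Cers4, Cers6 in each of the 6 libraries. Cers2 made up 73.7 ± 0.16% of the sum in knockouts and 71.7 ± 2.70% in controls, and Cers5 20.7 ± 0.38% in knockouts and 21.4 ± 2.13% in controls (SD, n = 3 each). Cers4 made up 4.06 ± 0.25% in knockouts and 5.03 ± 1.83% in controls, and Cers6 1.56 ± 0.17% in knockouts and 1.89 ± 0.24% in controls (SD, n = 3 each). No share separated the groups. Levels set against each other rest on the merged exons of each gene, from 3542 bases in Cers5 to 12264 in Cers4. With the length of the longest protein-coding transcript instead, a choice made after the data were seen, Cers2 made up 78.4% in knockouts and 76.6% in controls.

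The remaining isoforms were near silent: Cers1, the muscle and brain isoform, averaged 0.106 FPKM in knockouts and 0.102 FPKM in controls, and Cers3, of skin and testis, 0.0700 FPKM in knockouts and 0.0630 FPKM in controls.

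Ratios between isoforms gave no separation of the genotypes. The log2 ratio of Cers6 to Cers2 was -5.50, -5.75 and -5.44 in knockouts and -5.05, -5.26 and -5.45 in controls. The lowest control lay between 2 knockouts, and the difference of -0.31 had an exact two-sided permutation p of 0.2 (0.467 adjusted over 7 ratios). The ratio of Cers6 to Cers5 differed by -0.23 with the same exact permutation p, by -0.12 without knockout replicate 2 and by -0.14 without control replicate 2. The ratio of Cers5 to Cers2 was -1.84 ± 0.03 in knockouts and -1.75 ± 0.19 in controls (log2, SD, n = 3 each), a difference of -0.09 with an exact permutation p of 0.7. Of the 7 ratios that could be formed, 0 separated the groups, and 2 with Sptlc3 could not be formed because libraries were listed at 0.

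Degs1 (chromosome 1, 182275772 to 182282804, minus strand), the dihydroceramide desaturase, was second in level to Cers2. It stood at 41.8, 35.8 and 41.1 FPKM in knockouts and at 43.2, 36.7 and 39.9 FPKM in controls. Both groups spread over nearly the same range, with means of 39.5 ± 3.28 FPKM in knockouts and 39.9 ± 3.29 FPKM in controls (SD, n = 3 each). Its fitted log2 fold change was -0.01 (95% interval -0.24 to 0.21, adjusted p = 0.938 in limma). Its relative Degs2 was at most 0.216 FPKM in every library.

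Ugcg (chromosome 4, 59189257 to 59222833, plus strand), the glucosylceramide synthase that opens glycosphingolipid synthesis, had the smallest p of the 9 tested members. It stood at 3.49, 3.71 and 4.16 FPKM in knockouts and at 5.23, 4.41 and 5.62 FPKM in controls, from 257 to 472 reads per library. Every knockout was below every control, though knockout 3 and control 2 were close. The knockout mean of 3.79 ± 0.34 FPKM was 0.745 times the control mean of 5.09 ± 0.62 FPKM (SD, n = 3 each). Its log2 fold change came to -0.34 (SE 0.10, 95% interval -0.59 to -0.10), an unadjusted p of 0.0122 and an adjusted p of 0.126 in limma. With a pseudocount of 0.1 it was -0.41 (adjusted p = 0.123 in limma). After median-of-ratios scaling it was -0.27 (adjusted p = 0.163 in limma).

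Acer2 (chromosome 4, 86874396 to 86934822, plus strand), a ceramidase of the Golgi apparatus, stood at 10.1, 7.03 and 8.49 FPKM in knockouts and at 9.63, 10.4 and 8.96 FPKM in controls. Knockout 1 lay among the controls and knockout 2 was the lowest library. The log2 fold change was -0.17 (95% interval -0.47 to 0.13, adjusted p = 0.443 in limma), with -0.05 without knockout replicate 2, -0.29 without knockout replicate 1 and -0.09 after median-of-ratios scaling.

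**Figure D3:**
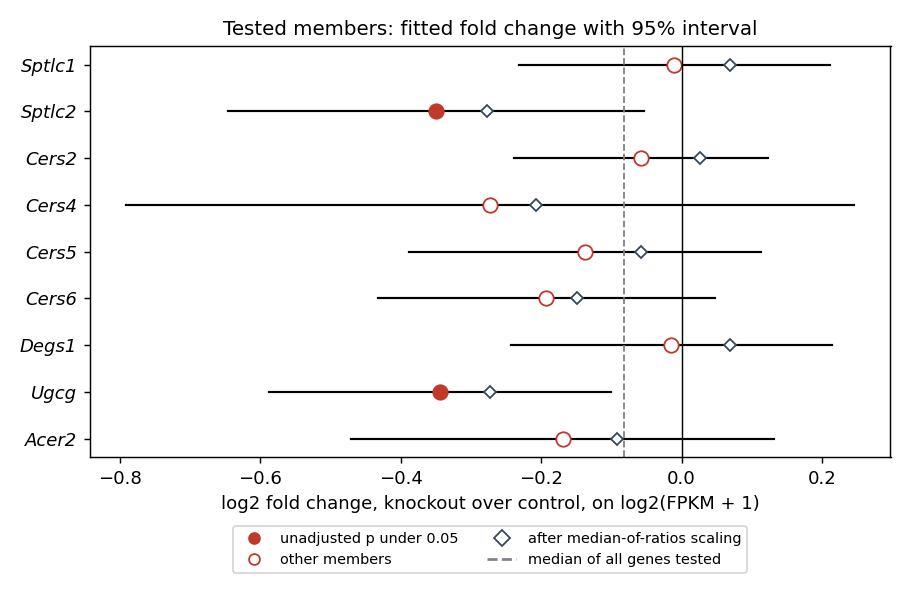
Fitted log2 fold change of knockout over control on log2(FPKM + 1) for the 9 tested members (horizontal axis; circles, with 95% intervals as lines), filled where the unadjusted p is under 0.05; diamonds are the values after median-of-ratios scaling. The intervals of Sptlc2 and Ugcg lie below 0, and Sptlc1, Cers2 and Degs1 lie above 0 after scaling.

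Of the 9 tested members, 2 were lower at an unadjusted p of 0.05, Sptlc2 and Ugcg, which is 22.2% against 17.1% of all genes tested. None was higher, against 6.98%. The groups did not overlap, with knockouts lower, for 3 of 9 (33.3%), against 22.7% of all genes tested and 8.48% in the other direction. All 9 had a fold change below 0, against 66.0% of all genes. After median-of-ratios scaling 6 of 9 members did, against 52.5% of all genes, and Sptlc2 and Ugcg were still the 2 members lower at an unadjusted p, where the background was 10.4% lower and 12.2% higher. The median log2 fold change was -0.17, against -0.08 over all genes tested. The share lower at an unadjusted p is near the background, and no count over 9 genes is read here as particular to the members.

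By level the members ran Cers2, Degs1, Sptlc1, Cers5, Acer2, Sptlc2, Ugcg, Cers4, Cers6 and Sptlc3, with means over the 6 libraries of 46.2, 39.7, 13.5, 13.4, 9.11, 5.26, 4.44, 2.937, 1.102 and 0.0393 FPKM in that order. Cers2 was above Degs1 in each library, while Sptlc1 and Cers5, Sptlc2 and Ugcg, and Ugcg and Cers4 overlapped in their ranges. Acer2 overlapped with Sptlc2 through knockout 2 and control 3.

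**Figure D4:**
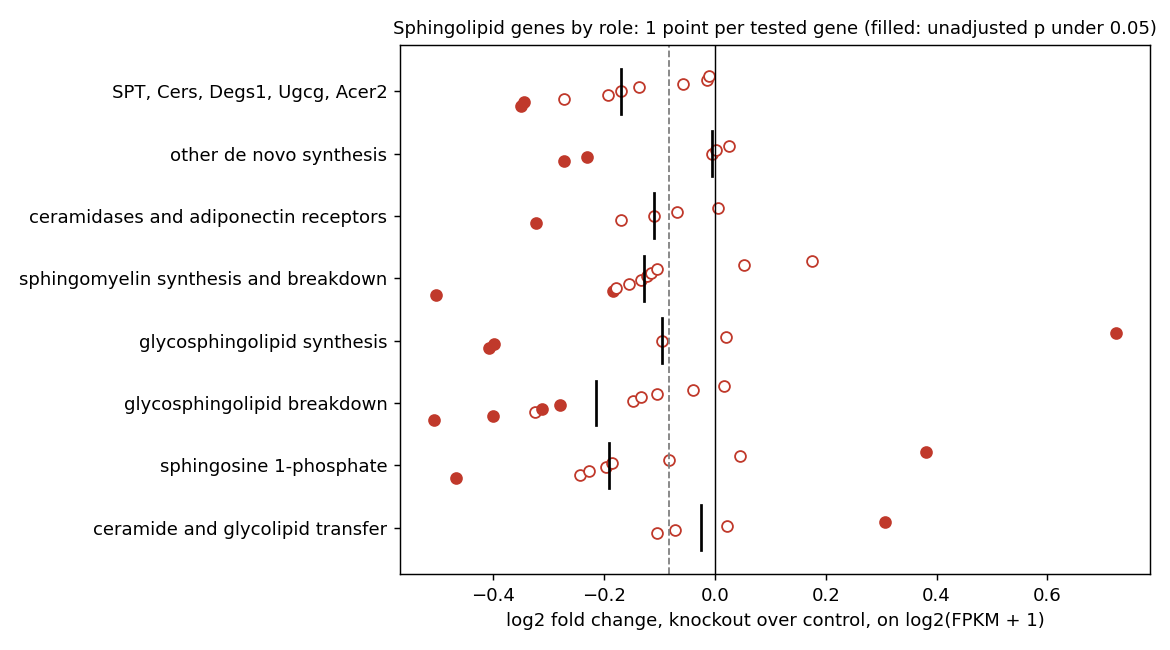
Fitted log2 fold change of knockout over control on log2(FPKM + 1) (horizontal axis), 1 point per tested sphingolipid gene, by role; short black bars are list medians, the dashed line the median of all genes tested, and filled points have an unadjusted p under 0.05. Filled points lie mostly left of 0, 4 of them in glycosphingolipid breakdown, with St3gal5, Sphk2 and Cptp to the right.

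The wider pathway was described with 7 lists holding 61 genes in the table, of which 47 were tested. At an unadjusted p of 0.05, 12 were lower (25.5%, against 17.1% of all genes tested) and 3 higher (against 6.98%). When adjusted over all genes, 0 passed (smallest adjusted p = 0.070 in limma). The shares of 17.1% lower and 6.98% higher are the background of each list count below. With so few genes per list, no such count is read as particular to its list. The 47 tested genes had a median log2 fold change of -0.12, and the medians given for each list below are on the same scale.

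Among the other genes of de novo synthesis, the unadjusted test put 2 of 5 below control and 0 above (median -0.01). That median was -0.23 with a filter at 5 FPKM, 0.07 after median-of-ratios scaling and -0.12 to 0.003 without 1 library. Kdsr, the reductase that follows serine palmitoyltransferase, averaged 5.12 ± 0.22 FPKM in knockouts and 6.40 ± 0.50 FPKM in controls (SD, n = 3 each; unadjusted p = 0.0123, adjusted p = 0.126 in limma). Ormdl3, an inhibitory subunit of serine palmitoyltransferase, was far above the enzyme's own subunits per length, at 169, 165 and 166 FPKM in knockouts and 208, 200 and 181 FPKM in controls (unadjusted p = 0.030, adjusted p = 0.168 in limma). Both genes separated the groups. The small activating subunit Sptssa averaged 20.2 FPKM in knockouts and 20.3 FPKM in controls, and Ormdl1 1.28 FPKM in knockouts and 1.24 FPKM in controls. Fa2h, which makes hydroxylated acyl chains and was named after its values were seen, was under the filter, at 0.310 ± 0.078 FPKM in knockouts and 0.873 ± 0.388 FPKM in controls (SD, n = 3 each).

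Of ceramidases and the adiponectin receptors, which have ceramidase activity, the unadjusted test put 1 of 5 below control and 0 above (median -0.11). That gene was Asah1, the acid ceramidase of lysosomes, at 21.3 ± 0.58 FPKM in knockouts and 26.9 ± 1.18 FPKM in controls (SD, n = 3 each; unadjusted p = 0.0026, adjusted p = 0.085 in limma). Adipor2 averaged 135 FPKM in knockouts and 153 FPKM in controls, Asah2 2.90 FPKM in knockouts and 3.21 FPKM in controls, and Acer3 0.954 FPKM in knockouts and 1.05 FPKM in controls. Acer1 was listed at 0 in all 6 libraries.

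Lysosomal breakdown of glycosphingolipids had 4 of 10 tested genes below control in the unadjusted test (40.0%, against 17.1% of all genes tested). It had 0 above (median -0.21). The beta-galactosidase gene Glb1 stood at 4.61, 5.36 and 4.66 FPKM in knockouts and at 7.24, 7.05 and 7.71 FPKM in controls, with a gap between the groups wider than either range (log2 fold change -0.51, adjusted p = 0.070 in limma). Hexa, a lysosomal hexosaminidase subunit, averaged 33.6 FPKM in knockouts and 42.3 FPKM in controls (adjusted p = 0.192 in limma). The activator gene Gm2a averaged 35.0 FPKM in knockouts and 42.8 FPKM in controls (adjusted p = 0.127 in limma). Macrophages are rich in lysosomal enzymes. At an unadjusted p of 0.05, 9 of 9 macrophage markers were lower, against 17.1% of all genes tested. Their summed level was 368 to 478 FPKM in knockouts and 583 to 777 FPKM in controls, none was at 0 in all libraries, and the part of macrophages in the values of Glb1, Asah1, Hexa and Gm2a was not tested.

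Downstream of Ugcg, in glycosphingolipid synthesis, the unadjusted test put 2 of 5 genes below control and 1 above (median -0.10). The sign of that median was not stable: it ran from -0.19 to 0.009 without 1 library and was 0.72 with a filter at 5 FPKM, which leaves St3gal5 alone. St3gal5, which makes the ganglioside GM3, stood at 16.5, 18.3 and 10.2 FPKM in knockouts and at 6.67, 7.06 and 12.6 FPKM in controls. Knockout 3 lay below control 3, so the groups overlapped (log2 fold change 0.72, SE 0.27, adjusted p = 0.175 in limma). B4galnt1, which extends gangliosides, averaged 0.620 FPKM in knockouts and 1.12 FPKM in controls (adjusted p = 0.135 in limma), from 23 to 65 reads per library. A4galt, of the globoside branch, averaged 3.27 FPKM in knockouts and 4.73 FPKM in controls (adjusted p = 0.202 in limma), and the lactosylceramide synthase B4galt6 2.11 FPKM in knockouts and 2.34 FPKM in controls.

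For sphingomyelin synthesis and breakdown, the unadjusted test put 2 of 10 genes below control and 0 above (median -0.13). Samd8, a ceramide phosphoethanolamine synthase, was tightly grouped, at 3.45, 3.39 and 3.46 FPKM in knockouts and 4.11, 4.00 and 4.00 FPKM in controls (adjusted p = 0.176 in limma). Smpdl3b, an acid sphingomyelinase-like membrane protein, averaged 0.956 FPKM in knockouts and 1.76 FPKM in controls (adjusted p = 0.123 in limma), from 19 to 70 reads per library. The sphingomyelin synthase Sgms1 averaged 5.17 FPKM in knockouts and 4.49 FPKM in controls, and Smpd2 3.96 FPKM in knockouts and 4.37 FPKM in controls.

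In the sphingosine 1-phosphate list the unadjusted test put 1 of 8 genes below control and 1 above (median -0.19). That median was -0.08 with a filter at 5 FPKM, without a filter, without control replicate 3 or without knockout replicate 3. The higher one was Sphk2, a kinase that makes sphingosine 1-phosphate, at 6.08, 7.02 and 7.21 FPKM in knockouts and 4.28, 5.86 and 4.83 FPKM in controls (log2 fold change 0.38, adjusted p = 0.128 in limma). The lower one was Sgpp1, a phosphatase that takes it back to sphingosine, at 4.06, 3.88 and 4.39 FPKM in knockouts and 5.84, 5.77 and 6.58 FPKM in controls (log2 fold change -0.47, adjusted p = 0.077 in limma). Both separated the groups. The exporter Spns2 averaged 1.98 FPKM in knockouts and 2.50 FPKM in controls, and the receptor S1pr1 16.2 FPKM in knockouts and 19.6 FPKM in controls.

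Of the lipid transfer genes, the unadjusted test put 1 of 4 above control and 0 below (median -0.03, and 0.04 after median-of-ratios scaling). Cptp, a transfer protein for ceramide 1-phosphate, averaged 5.48 ± 0.33 FPKM in knockouts and 4.26 ± 0.59 FPKM in controls (SD, n = 3 each; adjusted p = 0.147 in limma). Col4a3bp, the ceramide transfer protein, averaged 6.83 FPKM in knockouts and 7.24 FPKM in controls, Gltp 30.5 FPKM in knockouts and 33.0 FPKM in controls, and Plekha8 2.02 FPKM in knockouts and 1.97 FPKM in controls.

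Markers of thermogenic fat and of other tissues bear on these bulk values. Thermogenic adipocyte markers summed to 3416 to 5085 FPKM in knockouts and 1528 to 3337 FPKM in controls, with knockout 3 and control 3 close. Of the 8 markers, Elovl3, Ppargc1a, Cox7a1 and Kcnk3 separated the groups. Ucp1, Cidea, Cox8b and Dio2 overlapped. At an unadjusted p of 0.05, 5 of the 8 were higher, Ucp1 and Dio2 among them, against 6.98% of all genes tested. The number with a log2 fold change below 0 was 0. Skeletal muscle markers ran from 19.6 to 298 FPKM in knockouts and 15.6 to 66.2 FPKM in controls, with Tnnc2 listed at 0 in all, and erythroid markers from 580 to 1099 FPKM in knockouts and 977 to 1951 FPKM in controls. Schwann cell and nerve markers ran from 54.6 to 73.2 FPKM in knockouts and 61.7 to 92.2 FPKM in controls. Lymph node markers summed to at most 3.66 FPKM in knockouts and 3.82 FPKM in controls, and epithelial markers to at most 0.731 FPKM in knockouts and 1.38 FPKM in controls, with Krt14 and Wap listed at 0. Of the 8 progenitor and fibroblast markers, 5 were lower at an unadjusted p of 0.05 (62.5%, against 17.1% of all genes tested). The sum of the 8 overlapped between the groups. The part of these cell types in the values of the 10 genes was not tested.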

How the data were processed

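RNA of 6 samples went through a stranded mRNA kit and Illumina sequencing, per the labels' protocols. Trimming, alignment and counting tools listed per the submitters' processing notes are cutadapt, HISAT2 and HTSeq, with mm10. Their versions, the annotation and the strand setting of the count step were not given in the sources used here. The deposited values are FPKM, 1 column per sample, the unit read from the values: multiplied by merged exon length (GENCODE M21) and a factor per library, 97.90 to 98.07% of values of at most 50 reads lay within 0.05 of an integer. Of 21936 rows, 36 repeats of a symbol were left out. Recovered reads covered 21277 genes.

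Genotype was the only term in limma (version 3.58.1, R 4.3.3) with its trend option, fitted to log2(FPKM + 1) of all 6 libraries, a filter of 1 FPKM and a threshold of 0.05. The design named 9 ratios, and 7 could be formed. All 10 members are named, Foxp4, and up to 4 genes per list with the smallest p; Fa2h was added after seeing values. A gene that this rule names is not reported here. The members and lists were chosen with earlier results of these data known. Positions are those of GENCODE M21 and promoters those of RefSeq. Alternatives were a pseudocount of 0.1, no filter, a filter at 5 FPKM, median-of-ratios scaling, the replicate number as a block, each library left out, voom on recovered reads and, added later, transcript length. Counting limits cover counting error only, since reads carry no molecular identifiers.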

Additional observations from a re-analysis of the deposited data

How the results depend on the processing

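No member passed an adjusted p of 0.05 in limma under any alternative run. The adjusted p ranged from 0.103 to 0.335 for Ugcg, 0.104 to 0.356 for Sptlc2 and 0.224 to 0.589 for Cers6 over those alternatives. The 2 members below control by the unadjusted p were Sptlc2 and Ugcg under each of the 6 alternatives with all libraries, and the count was 1 to 4 without 1 library. Ugcg was counted in each of the 6 fits without 1 library, and Sptlc2 was lost without control replicate 1 or 3 and without knockout replicate 1 or 3. Cers4 and Cers5 joined without control replicate 2, and Acer2 without knockout replicate 1. After median-of-ratios scaling the log2 fold change was above 0 for Sptlc1 (0.070), Cers2 (0.026) and Degs1 (0.069), and the median of all genes was -0.01 in place of -0.08. Without 1 library Sptlc1 ranged from -0.094 to 0.032, Degs1 from -0.073 to 0.054, Cers2 from -0.09 to -0.02 and Cers4 from -0.49 to -0.02. Differences in the log2 ratio ranged from -0.17 to 0.013 for Cers5/Cers2, -0.099 to 0.38 for Cers5/Cers4 and -0.41 to 0.23 for Cers6/Cers4 without 1 library, and from -0.55 to -0.005 for Cers4/Cers2, where the cause was not tested. With transcript length in place of merged exons the shares of Cers2, Cers5, Cers6 and Cers4 were 78.4, 16.9, 1.26 and 3.37% in knockouts, and those of Cers2, Cers5 and Cers6 76.6, 17.6 and 1.54% in controls. The median of ceramidases and adiponectin receptors was -0.17 with a filter at 5 FPKM and -0.05 after median-of-ratios scaling, and that of sphingomyelin genes -0.06 after that scaling. The median of glycolipid transfer genes ran from -0.07 to 0.02 without 1 library.

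The count of genes called over all genes was 1 in the reported fit. It was 2 with a filter at 5 FPKM, 0 in limma without a filter (2137 below control and 843 above by the unadjusted p), 0 with voom (1849 and 718) and 0 to 5 without 1 library. Genes lower at an unadjusted p of 0.05 numbered 1848, and 1038 with a filter at 5 FPKM (6248 genes tested), 1120 after median-of-ratios scaling and 1099 to 2060 without 1 library. Genes higher numbered 753, and 1312 after that scaling and 402 to 893 without 1 library. Same-numbered libraries did not deviate together (correlations from -0.25 to 0.06, and 0 of 3 knockouts were closest to the control of their own number), so the numbers were not taken as pairs. With the replicate number as a block limma called 0 genes (1579 below control and 639 above by the unadjusted p), and the values were -0.34 for Ugcg (adjusted p = 0.174 in limma) and -0.35 for Sptlc2 (adjusted p = 0.239 in limma).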
